A study of Mus musculus with 6 samples.

Results

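The Polycomb repressive complex genes described here are 9 genes of the mouse: Ezh1, Ezh2, Eed, Suz12 and Jarid2, which encode components of Polycomb repressive complex 2 (PRC2), and Ring1, Rnf2, Bmi1 and Cbx2, which encode components of Polycomb repressive complex 1 (PRC1). They were chosen by gene name from the table of read counts, and all 9 were found among its 54532 genes. The table holds 6 libraries made by Smart-seq2, a protocol for full-length cDNA from little RNA. The study compared Merkel cells, the touch-sensing neuroendocrine cells of the epidermis, with bulk skin cells to obtain the expression programme of the normal cell for comparison with Merkel cell carcinoma.

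Both groups came from the dissociated epidermis of dorsal skin of C57BL/6 mice aged 4 weeks, with no treatment and no altered allele named. Male and female mice were used, and the labels do not give the sex of a library. The 3 NCAM-enriched libraries were made from cells bound by magnetic beads and by a fluorescent antibody to PSA-NCAM, the polysialylated form of the neural cell adhesion molecule, and sorted as living cells that exclude the dye DAPI. The 3 bulk skin libraries were made from DAPI-negative epidermal cells without NCAM selection, so they can hold Merkel cells too. Each library came from 500 sorted events. Nothing says that the replicates came from separate animals, so the p-values measure only the spread between these libraries, which may be technical.

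Polycomb proteins keep developmental genes silent through marks on histones. PRC2 methylates histone H3 at lysine 27 and PRC1 ubiquitinates histone H2A, and each complex can help to recruit the other. In the epidermis, both complexes are known to restrain the formation of Merkel cells.

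Library totals ran from 1343190 to 4481830 counts. Values are given as normalised CPM, the counts divided by a library total that was scaled by factors from the trimmed mean of M values (TMM). On this scale 1 count was worth 0.216 to 0.773 CPM. Of 10 Merkel cell markers, 10 were above bulk skin in every NCAM-enriched library and 5 passed the test, and their sum was 482 to 1674 CPM against 133 to 186 CPM. The count that passed was 0 without any 1 bulk skin library, where 0 or 1 of all genes was called higher. It was 2, 6 and 9 without NCAM-enriched library 1, 2 and 3, where 60, 444 and 1099 genes were called higher. In each of these fits all 10 markers had an unadjusted edgeR p under 0.05, as 2115 to 4425 of all genes did. NCAM-enriched library 2 had the smallest total and stood apart: 5 fibroblast markers (Col1a1, Col1a2, Col3a1, Dcn and Lum) summed to 32932 CPM in it, against 361 and 41.4 CPM in NCAM-enriched libraries 1 and 3 and 10319 to 18167 CPM in bulk skin. All 5 of these markers had counts in it, and Lum had none in the other NCAM-enriched libraries. T and NK cell markers summed to 3.09 to 44.6 CPM in NCAM-enriched libraries, against 3261 to 3478 CPM in bulk skin, and suprabasal keratinocyte markers to 12976 to 29743 CPM and 1055 to 1419 CPM. The part of these cell types in the results below was not tested.

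Across the 9 Polycomb genes, 0 were called between the groups by edgeR's quasi-likelihood test with Benjamini-Hochberg adjustment over all 13157 genes tested, at an adjusted p of at most 0.05. DESeq2 and limma-voom also called 0 of them. Of all genes tested, edgeR called 1.04% higher and 1.55% lower in NCAM-enriched libraries, DESeq2 5.06% and 7.10%, and limma-voom 2.67% and 6.45%. At an unadjusted p under 0.05, 1 of the 9, Ring1, was reached by each of these 3 tools, while edgeR reached 18.9% of all genes, DESeq2 23.0% and limma-voom 24.8%. The fitted log2 fold changes ran from -1.07 for Bmi1 to 1.62 for Ring1, with 4 above and 5 below 0, and their median was -0.23 beside -0.07 for all genes tested. Every NCAM-enriched library was above every bulk skin library for 1 of the 9 genes, Ring1, and below for 1, Bmi1, and the same was so for 11.1% and 19.3% of all genes. In such mixed samples, fewer cells of a type and less RNA per cell cannot be told apart.

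**Figure D1:**
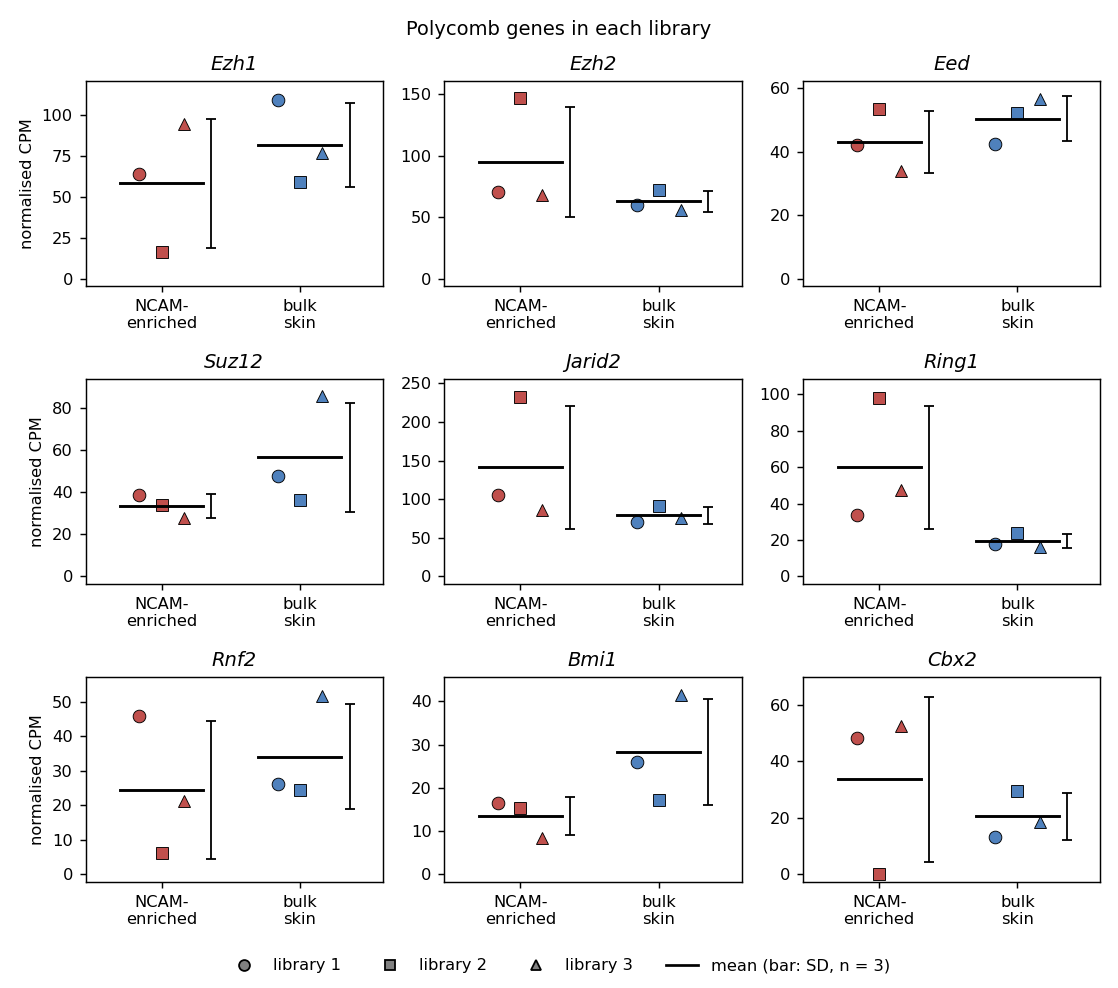
Normalised CPM (vertical axis of each panel, linear) of the 9 Polycomb genes in the 3 NCAM-enriched and 3 bulk skin libraries, with the symbol giving the library number, the line the mean and the bar beside it the SD. Ring1 is the panel with all NCAM-enriched libraries above bulk skin and Bmi1 the panel with all below, and NCAM-enriched library 2 (square) holds the highest Ezh2, Jarid2 and Ring1 and the lowest Ezh1, Rnf2 and Cbx2.

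Ezh1 and Ezh2 encode the alternative catalytic subunits of PRC2, the methyltransferases themselves. EZH2 is known to prevail in dividing cells and EZH1 in resting ones, and E2F factors are known to activate Ezh2. Ezh1 lies on chromosome 11 at positions 101191115 to 101226463 of GRCm38 and Ezh2 on chromosome 6 at 47530139 to 47595341, both on the minus strand. The start site of each gene is shown because the ratio of these 2 genes is compared below and their starts differ in an E2F word, the DNA letters that E2F factors bind. The sequences are from RefSeq windows of GRCm38.p6, written 5′ to 3′ on the gene's strand. The first pair runs 15 bases to each side of the start, and capitals mark the E2F word TTTGGCGC, whose first base is the 4th of Ezh2.
Ezh1, chr11:101226449-101226478: gcgcggggcgtggccgcggcgcaggggcgt
Ezh2, chr6:47595016-47595045: ggcgattgggttgctgcgTTTGGCGCtcgg
GENCODE M21 also holds Ezh2 transcripts that start further upstream. The next pair is the stretch from 150 to 31 bases before the start, which lies outside the GENCODE exons of both genes, with CpG dinucleotides in capitals (6 for Ezh1 and 11 for Ezh2).
Ezh1, chr11:101226494-101226613: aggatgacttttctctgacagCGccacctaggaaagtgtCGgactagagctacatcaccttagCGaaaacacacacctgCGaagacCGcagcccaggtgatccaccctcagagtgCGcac
Ezh2, chr6:47595061-47595180: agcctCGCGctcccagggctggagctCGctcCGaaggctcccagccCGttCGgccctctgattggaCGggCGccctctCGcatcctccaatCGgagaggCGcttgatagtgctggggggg

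Full windows of 300 bases were matched for 8 of the 9 genes and searched on both strands for the E2F words TTTCCCGC, TTTGGCGC and TTTCGCGC. Ezh2 held TTTGGCGC once, and Suz12 held TTTCCCGC once, with its first base 219 bases before the start. The letters were not found in the windows of Ezh1, Eed, Jarid2, Ring1, Rnf2 and Bmi1. Of 32851 windows of the same length, 1.07% held TTTCCCGC, 0.514% TTTGGCGC, 0.323% TTTCGCGC and 1.84% any of the 3. The windows of the Polycomb genes held 17 to 41 CpG dinucleotides, beside a median of 7 over all windows, of which 31.4% held at least 17.

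Ezh1 read 63.8, 16.2 and 94.8 CPM in NCAM-enriched libraries 1, 2 and 3 and 109, 58.8 and 77.0 CPM in bulk skin libraries 1, 2 and 3. The groups overlapped, with NCAM-enriched library 2 the lowest of the 6. The means were 58.3 ± 39.6 CPM and 81.7 ± 25.6 CPM (SD, n = 3 each). The log2 fold change of Ezh1 was -0.48 (SE 0.62, 95% interval -1.90 to 0.94, edgeR adjusted p = 0.749), and without NCAM-enriched library 2 it was -0.05.

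Ezh2 read 70.7, 147 and 67.8 CPM in the NCAM-enriched libraries and 60.2, 72.4 and 55.9 CPM in bulk skin. NCAM-enriched library 2 was the highest, and the other two lay within the bulk skin values. The means were 95.1 ± 44.8 and 62.9 ± 8.55 CPM. For Ezh2 the fitted log2 fold change was 0.59 (SE 0.45, 95% interval -0.43 to 1.62, edgeR adjusted p = 0.544), and without NCAM-enriched library 2 it was 0.13.

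The balance of the catalytic subunits was read within each library, where library size cancels. Of the reads counted on Ezh1 and Ezh2 together, Ezh1 took 47.4% (95% exact binomial interval 41.1 to 53.8%) in NCAM-enriched library 1, 9.95% (6.27 to 14.8%) in library 2 and 58.3% (54.1 to 62.4%) in library 3. In bulk skin it took 64.5% (60.3 to 68.5%), 44.8% (40.8 to 48.9%) and 57.9% (53.4 to 62.4%). These intervals cover counting error only, since PCR copies without molecular identifiers are not independent molecules. NCAM-enriched library 2, with 21 Ezh1 and 190 Ezh2 counts, lay below all others, while NCAM-enriched libraries 1 and 3 lay within the range of bulk skin. Divided by exonic length, Ezh1 to Ezh2 was 0.810, 0.0992 and 1.25 in the NCAM-enriched libraries and 1.63, 0.729 and 1.24 in bulk skin.

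On the log2 scale, with 0.5 added to each count, the ratio of Ezh1 to Ezh2 averaged -0.94 ± 1.94 among NCAM-enriched libraries and 0.34 ± 0.59 among bulk skin libraries (SD, n = 3 each). The difference of -1.28 was smaller than the spread among the NCAM-enriched libraries (exact two-sided permutation p = 0.5, where 3 against 3 libraries cannot go below 0.1). Without NCAM-enriched library 2 the difference was -0.17. That library also carried the fibroblast markers given above, as bulk skin did. It had the highest share of mitochondrially encoded counts, 1.97% against 0.139 to 0.896% in the other libraries. Its 11565 genes with at least 5 counts were the fewest, against 13501 to 15638. The part of these traits in the ratio was not tested. The sum of Ezh1 and Ezh2 was 134, 163 and 163 CPM in the NCAM-enriched libraries and 170, 131 and 133 CPM in bulk skin. Their means of 153 ± 16.4 and 145 ± 21.6 CPM differed by less than the SD of either group (exact two-sided permutation p = 0.8, n = 3 each).

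**Figure D2:**
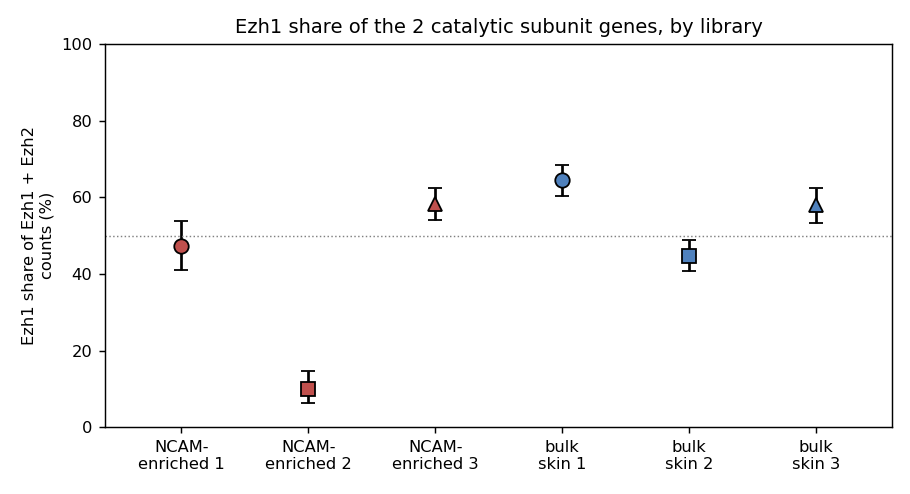
Share of Ezh1 among the counts of Ezh1 and Ezh2 (vertical axis, percent) in each of the 6 libraries, with bars giving the 95% exact binomial interval of the counts and the dotted line marking equal counts. NCAM-enriched library 2 sits at 9.95% and the other libraries between 44.8 and 64.5%.

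The non-catalytic core subunits of PRC2 showed no called difference. Eed, which encodes the subunit that binds the finished methyl mark and activates the enzyme, lies on chromosome 7 at 89954654 to 89980983. It read 42.0, 53.3 and 33.8 CPM in the NCAM-enriched libraries and 42.5, 52.1 and 56.5 CPM in bulk skin, with overlapping groups. Eed had a log2 fold change of -0.23 (SE 0.48, 95% interval -1.32 to 0.86, edgeR adjusted p = 0.856), and without NCAM-enriched library 2 it was -0.43.

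Suz12, on chromosome 11 at 79993106 to 80034123, encodes the scaffold that holds the enzyme in the complex. Its values were 38.8, 34.0 and 27.5 CPM in the NCAM-enriched libraries and 47.8, 36.1 and 85.5 CPM in bulk skin. The groups overlapped only in that NCAM-enriched library 1 was above bulk skin library 2, and bulk skin library 3 was the highest. For Suz12, the log2 fold change was -0.76 (SE 0.54, 95% interval -1.99 to 0.47, edgeR adjusted p = 0.511), and without bulk skin library 3 it was -0.39.

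Jarid2, on chromosome 13 at 44729474 to 44921643, encodes an accessory subunit that helps PRC2 reach chromatin. It read 105, 233 and 86.5 CPM in the NCAM-enriched libraries and 70.2, 90.8 and 75.9 CPM in bulk skin. NCAM-enriched library 2 was again the highest, and library 3 lay within the bulk skin values. The log2 fold change of Jarid2 was 0.84 (SE 0.46, 95% interval -0.20 to 1.88, edgeR adjusted p = 0.378), and without NCAM-enriched library 2 it was 0.26. Summed over Ezh1, Ezh2, Eed, Suz12 and Jarid2, the PRC2 genes gave 371 ± 96.8 CPM for NCAM-enriched cells and 330 ± 20.4 CPM for bulk skin (exact two-sided permutation p = 0.8, n = 3 each).

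Ring1 and Rnf2 encode the alternative RING-type ubiquitin ligases of PRC1, RING1A and RING1B. Ring1, on chromosome 17 at 34020792 to 34024680, read 34.0, 98.1 and 47.7 CPM in the NCAM-enriched libraries and 18.01, 23.8 and 16.4 CPM in bulk skin. The groups did not overlap, and NCAM-enriched library 2 was the highest. The means were 59.9 ± 33.8 and 19.4 ± 3.86 CPM. Ring1 had the largest fitted difference of the 9 genes, with a log2 fold change of 1.62 (SE 0.61, 95% interval 0.24 to 3.0), but it did not pass the test after adjustment (edgeR unadjusted p = 0.0267, adjusted p = 0.192). Without NCAM-enriched library 2 it was 1.06 (edgeR adjusted p = 0.266). The other 2 NCAM-enriched libraries still lay above bulk skin.

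Rnf2, on chromosome 1 at 151458004 to 151500955, read 45.7, 6.18 and 21.3 CPM in the NCAM-enriched libraries and 26.1, 24.4 and 51.5 CPM in bulk skin. The value of NCAM-enriched library 2 rested on 8 counts, and NCAM-enriched library 1 lay among the bulk skin values. Rnf2 had a log2 fold change of -0.47 (SE 0.82, 95% interval -2.33 to 1.38, edgeR adjusted p = 0.820), and without NCAM-enriched library 2 it was -0.04. The other ligase gene, Ring1, thus stood highest in the library where Rnf2 stood lowest. Whether the ratio of the 2 ligase genes differed between the groups was not tested.

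Bmi1, on chromosome 2 at 18677018 to 18686629, encodes the partner that activates the ligase in canonical PRC1. It read 16.5, 15.5 and 8.51 CPM in the NCAM-enriched libraries and 26.1, 17.3 and 41.4 CPM in bulk skin. The groups did not overlap, though bulk skin library 2 lay just above the NCAM-enriched values. Means of Bmi1 were 13.5 ± 4.33 and 28.3 ± 12.2 CPM, and the log2 fold change was -1.07 (SE 0.77, 95% interval -2.81 to 0.67, edgeR adjusted p = 0.512). Without bulk skin library 3, the highest, the log2 fold change was -0.76.

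Cbx2, on chromosome 11 at 119022962 to 119031270, encodes a chromodomain protein through which canonical PRC1 reads methylated H3 and compacts chromatin. It read 48.4, 0 and 52.5 CPM in the NCAM-enriched libraries and 13.4, 29.6 and 18.6 CPM in bulk skin. NCAM-enriched libraries 1 and 3 were above all bulk skin libraries, and library 2 had 0 counts, which allows up to 2.32 CPM (3 counts). This limit, like the floors of 3 counts used below, covers counting error only. Cbx2 had a log2 fold change of 0.72 (SE 1.25, 95% interval -2.11 to 3.54, edgeR adjusted p = 0.822). Without NCAM-enriched library 2 it was 1.28 (SE 0.54, edgeR adjusted p = 0.186). The PRC1 genes Ring1, Rnf2, Bmi1 and Cbx2 summed to 131 ± 12.5 CPM for NCAM-enriched cells and 102 ± 23.1 CPM for bulk skin (exact two-sided permutation p = 0.2, n = 3 each).

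**Figure D3:**
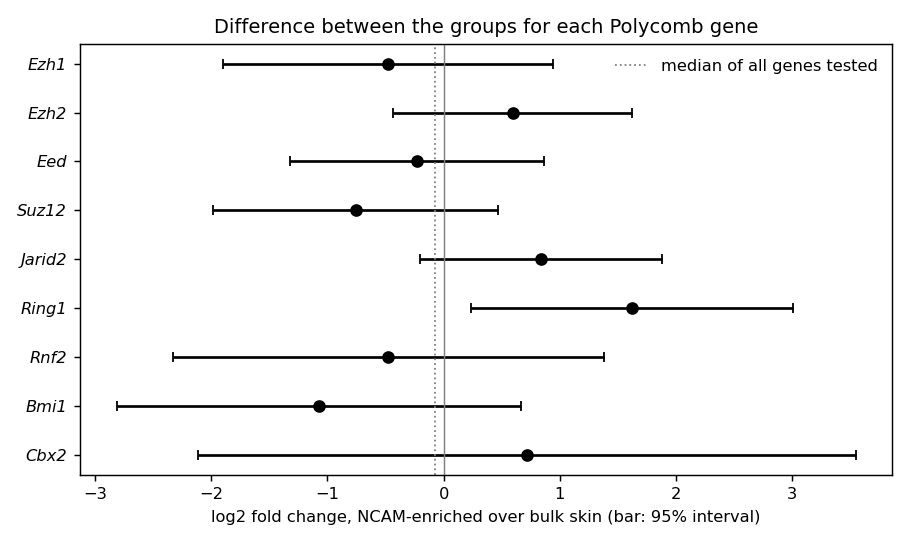
Fitted log2 fold change of each Polycomb gene (horizontal axis, NCAM-enriched over bulk skin) with its 95% interval from edgeR, the solid line at 0 and the dotted line at the median of all genes tested. The interval of Ring1, 0.24 to 3.0, lies above 0 before adjustment for the number of genes, and the other 8 intervals include 0.

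Levels were compared between genes as CPM per kilobase of exonic length. In bulk skin the order was Eed (13.2 ± 1.86), Suz12 (11.4 ± 5.22), Ezh1 (11.0 ± 3.44), Ezh2 (9.41 ± 1.28), Rnf2 (8.24 ± 3.68), Jarid2 (8.13 ± 1.10), Bmi1 (7.11 ± 3.07), Ring1 (5.99 ± 1.19) and Cbx2 (4.82 ± 1.95). In the NCAM-enriched group it was Ring1 (18.5 ± 10.4), Jarid2 (14.6 ± 8.18), Ezh2 (14.2 ± 6.71), Eed (11.2 ± 2.56), Cbx2 (7.90 ± 6.86), Ezh1 (7.83 ± 5.32), Suz12 (6.76 ± 1.14), Rnf2 (5.91 ± 4.83) and Bmi1 (3.39 ± 1.09). Within each group, no neighbours in the order differed by more than the larger of their SDs. Ring1 thus stood last but for Cbx2 in bulk skin and at the top in the NCAM-enriched group, a change of place that was not tested. Smart-seq2 does not keep strand, and 2.61% of the exonic bases of Ezh2, 6.82% of Eed, 3.60% of Suz12 and 3.83% of Rnf2 are shared with a gene on the other strand, whose reads cannot be told apart.

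Libraries differed more from one another in the NCAM-enriched group. The coefficient of variation of CPM was higher there than in bulk skin for 7 of the 9 Polycomb genes, Suz12 and Bmi1 being the other 2, and for 81.7% of all genes tested. Its median over the 9 genes was 56.2% among NCAM-enriched libraries, against 31.3% in bulk skin, beside 70.1% and 32.0% over all genes tested.

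Of 37 further genes of the Polycomb complexes, 33 were tested, and edgeR called 0 of them, with 5 at an unadjusted p under 0.05 (3 of them above and 2 below bulk skin). DESeq2 called 2 of them, Usp7 and Aebp2, and limma-voom called 1, Usp7. Both are near or below the shares of all genes that these tools called, given above. The median log2 fold change of the 33 was 0.07. Genes for accessory subunits of PRC2 had a median of -0.32 over 8 tested. Aebp2, whose product stabilises PRC2 on nucleosomes, read 48.9, 45.6 and 59.3 CPM in the NCAM-enriched libraries and 122, 115 and 167 CPM in bulk skin, with no overlap. Aebp2 had a log2 fold change of -1.39 (SE 0.38, edgeR adjusted p = 0.0841, DESeq2 adjusted p = 0.0137). Rbbp7, a histone chaperone gene and the most abundant of the list, had a log2 fold change of -0.88 (edgeR adjusted p = 0.229), and Mtf2, for a Polycomb-like protein that binds CpG-rich DNA, 1.05 (edgeR adjusted p = 0.375).

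Genes for further subunits of canonical PRC1 had a median log2 fold change of 0.07 over 9 tested. Cbx6, for another chromodomain reader, had 0.64 (edgeR adjusted p = 0.582), and Phc3, for a polyhomeotic protein, had 0.87 (edgeR adjusted p = 0.448). The most abundant, Phc2, had 0.07 (edgeR adjusted p = 0.951). Phc1, named after its values were seen, had counts of 0, 31 and 0 in the NCAM-enriched libraries and 34, 43 and 91 in bulk skin, and a log2 fold change of -0.94 (SE 1.80, edgeR adjusted p = 0.841). Without NCAM-enriched library 2, edgeR called it lower (adjusted p = 0.0361), beside 592 of all 14384 genes. The remaining NCAM-enriched libraries then had no count, so Phc1 entered that fit only through bulk skin and the direction was fixed in advance. It was then at least 26.3-fold lower against a floor of 3 counts over them. This is no bound for all 6 libraries, since NCAM-enriched library 2 read 24.0 CPM against 10.6, 9.30 and 24.9 CPM in bulk skin.

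Genes of the variant PRC1 complexes had a median log2 fold change of 0.26 over 16 tested. Usp7, for a deubiquitinase found with variant PRC1, read 342, 475 and 210 CPM in the NCAM-enriched libraries and 70.8, 142 and 104 CPM in bulk skin, with no overlap. Usp7 had a log2 fold change of 1.69 (SE 0.44, edgeR adjusted p = 0.0753, DESeq2 adjusted p = 0.0100, limma-voom adjusted p = 0.0305). Fbrs and Auts2, for related proteins of variant PRC1, had 1.11 (edgeR adjusted p = 0.201) and 1.24 (edgeR adjusted p = 0.243).

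Enzymes that remove Polycomb marks, or their partners, gave 0 calls and 0 at an unadjusted p under 0.05 among 7 tested by edgeR, DESeq2 and limma-voom, with a median log2 fold change of -0.07. Kdm6b, for an H3K27 demethylase and the most abundant, had 0.44 (edgeR adjusted p = 0.578). Asxl1, for the partner of the H2A deubiquitinase BAP1, had -1.02 (edgeR adjusted p = 0.430), and Usp16, for another H2A deubiquitinase, had 0.42 (edgeR adjusted p = 0.669).

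Cell cycle genes were set beside Ezh2. Of 20 tested, edgeR called 0, with 9 at an unadjusted p under 0.05, all below bulk skin, where 10.2% of all genes were reached in that direction. The edgeR count was 2 lower (Ccnb2 and Tyms) without NCAM-enriched library 2, beside 592 of all 14384 genes. It was 3 lower (Ccnb2, Pcna and Mcm5) without NCAM-enriched library 3, beside 733 of 14962. It stayed 0 without NCAM-enriched library 1 and without any 1 bulk skin library, where 13 to 223 of all genes were called lower. In those fits 2 to 5 of the 20 had an unadjusted edgeR p under 0.05, as 2115 to 2897 of all genes did. When every gene with a count was kept the count was 4 lower (Cdk1, Ccnb2, Birc5 and Mcm2), beside 741 of 27884. DESeq2 called 3 lower, Ccnb2, Birc5 and Pcna, beside 7.10% of all genes, and limma-voom called 0. Their median log2 fold change was -1.51, with 18 of 20 below 0, beside 6887 of all 13157 genes tested. Of the 20, 13 were below bulk skin in every NCAM-enriched library, as 19.3% of all genes were. Their sum was 671, 856 and 960 CPM in the NCAM-enriched libraries and 1902, 1558 and 1368 CPM in bulk skin, with no overlap (exact two-sided permutation p = 0.1, the smallest possible, n = 3 each). Ccnb2, a mitotic cyclin gene, had -2.33 (SE 0.62, edgeR adjusted p = 0.0792). Birc5, for survivin, had -3.16 (SE 0.86, edgeR adjusted p = 0.0829), and Pcna, for the sliding clamp of replication, had -1.47 (SE 0.43, edgeR adjusted p = 0.0997). Top2a, for a topoisomerase and the most abundant, had -0.37 (edgeR adjusted p = 0.739). The log2 fold change of Ezh2 itself was 0.59, as given above, with a 95% interval of -0.43 to 1.62 that includes 0. Without NCAM-enriched library 2 it was 0.13. The contrast of Ezh2 with the cell cycle genes was not tested.

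Hox genes and the Ink4 locus are textbook targets of Polycomb silencing. Of 39 Hox genes, 20 were tested and 9 had no count in any library. Of the 20, edgeR and limma-voom called 0 and DESeq2 called 1, Hoxa9, which is no larger a share than the 5.06% it called higher among all genes. At an unadjusted p under 0.05 there was 1 by each of the 3 tools. Their median log2 fold change was 1.07, with 16 of 20 above 0, beside 6270 of all 13157 genes tested. Of the 20, 2 were above bulk skin in every NCAM-enriched library, as 11.1% of all genes were, and 18 overlapped. All Hox genes together summed to 430, 392 and 492 CPM in the NCAM-enriched libraries and 280, 243 and 172 CPM in bulk skin, with no overlap (exact two-sided permutation p = 0.1, the smallest possible, n = 3 each). Hoxa9 had counts of 60, 10 and 79 against 13, 8 and 1, and a log2 fold change of 3.35 (SE 1.25, edgeR adjusted p = 0.187, DESeq2 adjusted p = 0.0283). Its bulk skin counts were too few to pass the filter on low counts by themselves. It was thus tested through the NCAM-enriched libraries, and its call is no support for the direction. Hoxb9 had 1.71 (edgeR adjusted p = 0.445), Hoxb7 had 1.04 (edgeR adjusted p = 0.471) and the most abundant, Hoxa7, had 1.20 (edgeR adjusted p = 0.511).

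In the Ink4 locus, Cdkn2b, for an inhibitor of the cyclin D kinases, had counts of 138, 43 and 57 in the NCAM-enriched libraries and 0, 14 and 0 in bulk skin. Cdkn2b had a log2 fold change of 5.22 (SE 1.58, edgeR adjusted p = 0.108, DESeq2 adjusted p = 0.00249, limma-voom adjusted p = 0.0180). All of its bulk skin counts came from bulk skin library 2, so it passed the filter on low counts only through the NCAM-enriched libraries. These p-values are thus no support for its direction. Leaving out bulk skin library 2 removes every bulk skin count, so the direction there was fixed in advance. Against a floor of 3 counts over the other 2, Cdkn2b was then at least 81.3-fold higher (edgeR adjusted p = 0.149). This is no bound for all 6 libraries, where the fitted fold was 37.2. Cdkn2a, for p16 and p19ARF, had counts of 88, 13 and 2 in the NCAM-enriched libraries and 0 in each bulk skin library, and did not pass the filter on low counts. When every gene with a count was kept, edgeR called it higher (adjusted p = 0.00302), beside 769 of 27884 genes. DESeq2 did too (adjusted p = 0.000594), beside 1241 of 16942. Without NCAM-enriched library 3 it passed the filter and was called (edgeR adjusted p = 0.0377), beside 1099 genes of 14962. Without any 1 bulk skin library it was not called (edgeR adjusted p from 0.267 to 0.285), where 0 or 1 gene was called higher. With no bulk skin count, Cdkn2a could enter a test only through the NCAM-enriched libraries, so the direction of these calls was fixed in advance. Pooled over each group it was at least 58.9-fold higher in the NCAM-enriched group, against a floor of 3 counts over the bulk skin group, and at least 11.9-fold without NCAM-enriched library 1, which held most of its counts. Without NCAM-enriched library 3 the bound was 122-fold, and without bulk skin library 2 it was 35.2-fold.

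**Figure D4:**
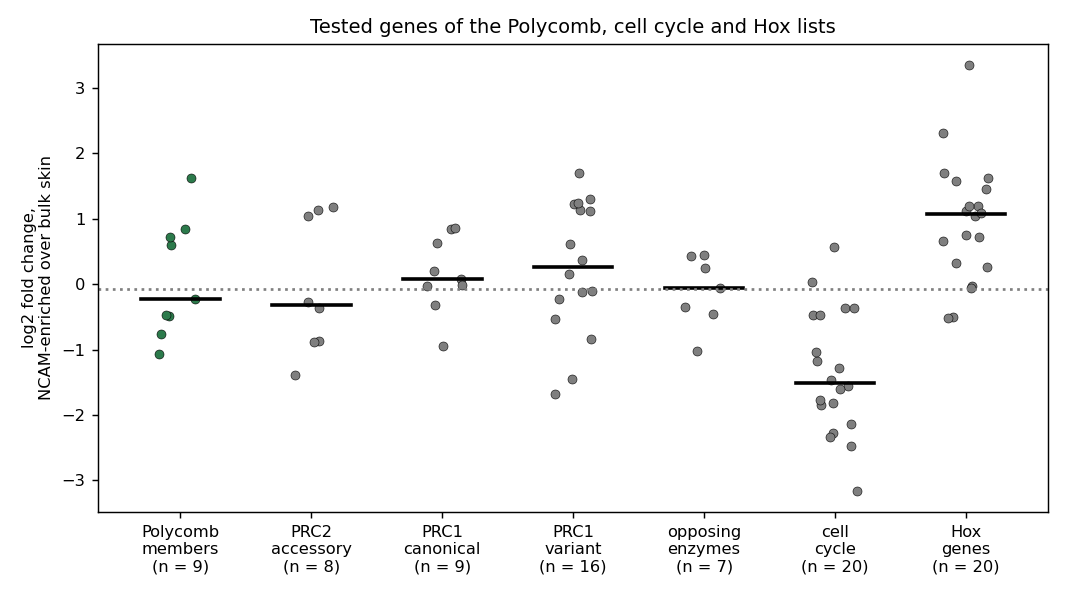
Fitted log2 fold changes (vertical axis, NCAM-enriched over bulk skin) of the tested genes of each list, 1 point a gene, with the list's median as a bar and the median of all genes tested as a dotted line. The cell cycle genes have a median of -1.51 and the Hox genes of 1.07, and the medians of the Polycomb and opposing lists lie between -0.32 and 0.26.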

How the data were processed

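Smart-seq2 libraries of 500 sorted events were sequenced by the authors. According to the study's methods and submitters' notes, adapter and polyA sequences were clipped, abundant sequences were removed with bbmap, and reads were aligned to GRCm38 with STAR and counted with featureCounts. The deposited values are raw counts per gene, without normalization. Which annotation release was used is not stated in them, nor is the strand setting.

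The groups, taken from the labels, were compared with edgeR 4.0.16 in R 4.3.3, using filterByExpr, TMM factors and the quasi-likelihood F-test, with Benjamini-Hochberg adjustment over 13157 genes. The SE was derived from the F statistic, as the size of the fold change over its square root. The script was tested on simulated data. Ratios and summed levels were compared by exact two-sided permutation tests. DESeq2 1.42.0, limma-voom (limma 3.58.1), other factors and filters, a replicate block and leaving out each library were alternatives. A DESeq2 fit that kept every gene with a count was added after the data had been seen. Positions and exonic lengths, the union of all exons, came from GENCODE M21, in which 54495 of 54532 gene IDs were found, and promoter windows from RefSeq.

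The Polycomb genes and the other lists were chosen with earlier results of these data known. All 9 Polycomb genes are named. Of each other list, the text names the 3 tested genes with the smallest p and the most abundant gene. Genes alike Ezh1 or Ezh2 were the 5 with the highest Pearson r of log2(CPM + 1) among tested genes averaging 10 CPM or more. Some genes that this rule selects are not reported here. Phc1, Cdkn2a and genes called in an alternative were named outside this rule, after their values were seen. The remaining lists were markers of Merkel, fibroblast, T and NK, suprabasal and other cells. Basal keratinocyte markers gave 0 calls of 6 (0 at an unadjusted p under 0.05), Langerhans and myeloid markers 5 of 6 lower, red blood cell markers 4 of 4 lower, and melanocyte markers were not tested.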

Additional observations from a re-analysis of the deposited data

How the results depend on the processing

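The 9 Polycomb genes gave 0 calls in all 18 alternatives. Each kept the direction of its log2 fold change in all of them, except Cbx2, which was -0.56 with limma-voom (adjusted p = 0.828). Ring1 ran from 1.06 to 1.88 (adjusted p from 0.0701 to 0.439), Ezh1 from -1.07 to -0.05 and Ezh2 from 0.13 to 0.75 on the log2 scale. The difference in the log2 ratio of Ezh1 to Ezh2 stayed negative in every alternative run on it: -1.27 and -1.19 with pseudocounts of 1 and 5, -1.30 after thinning to the smallest library, -1.07 between the fitted fold changes, and -1.99 to -0.17 when a library was left out.

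Calls among the further Polycomb genes moved from 0 to 1 higher, Usp7, with DESeq2, with DESeq2 on all genes, with limma-voom and with edgeR when every gene with a count was kept, and to 1 lower, Aebp2, with both DESeq2 fits. When a library was left out, 0 to 1 were called higher and 0 to 1 lower. Without NCAM-enriched library 3 these were Usp7 and Aebp2, beside 1099 genes higher and 733 lower of 14962. Without NCAM-enriched library 2 it was Phc1, whose NCAM-enriched counts were all in that library, beside 592 lower of 14384. The causes were not tested. Cdkn2b was called in 4 of 18 alternatives (log2 fold change from 4.47 to 9.75, adjusted p from 0.00207 to 0.313), the highest without bulk skin library 2, where the fitted value depends on the prior count.

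The replicate number as a block gave 0 calls among the 9 genes and among the further Polycomb genes, and a mean paired difference in the ratio of -1.28 (exact sign-flip p = 0.5, with 0.25 the smallest possible). Libraries of the same number were not treated as pairs, since their deviations correlated at 0.0231, 0.000232 and -0.00776. Over all genes, the 137 higher and 204 lower calls became 661 higher and 928 lower under DESeq2, and 351 and 849 under limma-voom. Without the stronger filter they were 769 and 741 of 27884, and 1241 and 1081 of 16942 with DESeq2 on all genes. The block gave 50 and 92. Leaving out a library gave 0 to 1099 higher and 13 to 733 lower calls. Over all genes the median log2 fold change moved from -0.07 to -0.37 with limma-voom and -0.36 with the block.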

Other observations

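Genes whose levels closely followed Ezh1 over the 6 libraries, among 10670 candidates, were Fdx1 (Pearson r of log2(CPM + 1) 0.996), 1500011K16Rik (0.993), Amigo1 (0.989) and Mrps28 (0.988). For Ezh2 the closest were Rbfox2 (0.993), Adck2 (0.993), Ubn1 (0.989), Rrbp1 (0.986) and Hnrnpu (0.984). Among these, Fdx1 encodes a mitochondrial ferredoxin, and Rbfox2 and Hnrnpu RNA-binding proteins. The points share the same libraries and their depth, and NCAM-enriched library 2 was an extreme for both genes. Over the 5 libraries without it, r for the same genes was 0.906 to 0.976 with Ezh1 and 0.811 to 0.954 with Ezh2. These values describe the 6 libraries, and no test was made.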
